A study of Mus musculus with 20 samples.

Results

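The genes described here are 9 regulators of satellite cells and of myoblast fusion, namely Pax7, Megf10, Cdh15, Myf5, Myod1, Myog, Myf6, Mymk and Mymx. They were listed by name, and all 9 were found among the 54532 Ensembl genes of the count tables, 2 of them (Mymk and Mymx) under an older symbol. RNA-seq had been run on the plantaris of male C57BL/6J mice aged 5 months, 10 days after sham surgery or mechanical overload (MOV). In MOV, part of the gastrocnemius and soleus is cut away from both hindlimbs so that the plantaris bears more load. At surgery the left plantaris had been injected with a control lentivirus and the right plantaris with a lentivirus for a mimic of miR-1, so that every muscle sequenced, sham muscles included, had been injected with a virus. Both viruses carried a mouse CMV promoter, which is not restricted to muscle fibres, and a Turbo-GFP reporter. This gave 4 groups of 5 libraries, which are called sham control and sham mimic or, after overload, MOV control and MOV mimic. Library totals lay between 12036360 and 23056525 counts (median 16940547.5). The level of miR-1 was not analysed here. By the paper's qPCR, miR-1 still fell after MOV with the mimic, though less than with the control virus. In sham muscle the paper found no rise of miR-1 with the mimic.

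Satellite cells are the stem cells of skeletal muscle and lie between a fibre and its basal lamina. They are marked by the transcription factor Pax7. When a muscle is injured or loaded they leave quiescence, turn on the myogenic bHLH factors Myf5 and Myod1, and divide as myoblasts. Myog then drives their differentiation, and the membrane proteins myomaker (Mymk) and myomerger (Mymx) let the differentiated cells fuse with each other or with fibres. In whole muscle, RNA of these genes can come from a small number of cells among many fibre nuclei. Fibre nuclei also express Myf6 and Myod1, and the cell source of each RNA was not tested here.

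miR-1 and its relative miR-206 are muscle microRNAs with the same seed, and Pax7 mRNA is a known target of this family. The seed and its matches are shown because the mimic virus was made to raise miR-1. The mature sequence of miR-206-3p (RefSeq, GRCm38.p6, chr1:20679055-20679076, plus strand) is given with its seed, bases 2 to 8, in capitals. The DNA letters ACATTCC, which pair with this seed, were searched in the transcripts of GENCODE vM1 (assembly NCBIM37). They were found in the 3′ UTR of 1 of the 9 genes, Pax7, which held 4 matches, against 9.79% of the 20007 genes with a 3′ UTR sequence. In the coding sequences they were found in 0 of 9, against 9.54% of 22737 genes. In the Pax7 windows below, capitals mark the match, and positions are counted from 1 at the start of the 3′ UTR of transcript Pax7-001, which has 3725 bases. The match at 2114 to 2121 is an 8mer, in which an A follows the 7 letters.
miR-206-3p: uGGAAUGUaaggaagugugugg
Pax7 at 1571 to 1577: cagccagcaagACATTCCtagagagagga
Pax7 at 1990 to 1996: catcctcctccACATTCCttgctccctgg
Pax7 at 2114 to 2121: ccaagggagcaACATTCCAacgcttggacc
Pax7 at 3452 to 3458: tgtgctgacgaACATTCCttcttcccagt

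bHLH factors such as Myod1 and Myog bind the E-box, CANNTG. Promoter windows of 300 bases, from 250 before to 50 after the start, were matched in RefSeq (GRCm38.p6) for 4 of the 9 genes, Cdh15, Myf5, Myog and Pax7. CANNTG was present 4 times in the window of Cdh15, 2 times in that of Myog, and in neither of the windows of Myf5 and Pax7, and 72.3% of 32851 promoters of this length hold it. None of the 4 windows held CAGCTG (16.3% of promoters), nor did any hold CAGGTG on either strand (20.2%). The Myog window is printed because Myog varied together with Mymk and Mymx between libraries of one group. Its E-boxes, in capitals, are CACATG at 138 bases and CAGTTG at 12 bases before the start. It lies at chr1:134289754-134290053 on the plus strand.
Myog: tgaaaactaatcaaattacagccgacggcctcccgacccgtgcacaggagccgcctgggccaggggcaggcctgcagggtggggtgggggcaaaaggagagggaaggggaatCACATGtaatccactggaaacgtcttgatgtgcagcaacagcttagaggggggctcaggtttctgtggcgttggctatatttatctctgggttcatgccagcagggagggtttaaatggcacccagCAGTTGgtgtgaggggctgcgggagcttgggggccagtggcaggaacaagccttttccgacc

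Expression is given as TMM CPM, the read counts of a gene scaled to library size after TMM normalization over the 20 libraries, and log2 fold changes and p-values are from the quasi-likelihood test of edgeR on the 10 libraries of a comparison, two-sided, with Benjamini-Hochberg adjustment over all genes tested and a threshold of 0.05. All 9 genes passed the filter on low counts in each comparison. When MOV control was compared with sham control, all 9 had a higher fitted level after MOV, with a median log2 fold change of 0.72, where 54.2% of the 14974 genes tested were higher and the median over all of them was 0.04. At an unadjusted p under 0.05 there were 3 of the 9, Pax7, Megf10 and Myog, against 9.06% of all genes. None reached an adjusted p under 0.05 with edgeR, which called 1 gene of all tested (0.00668%). DESeq2 called 1 of the 9, Pax7, and 6.10% of all genes. The 5 MOV control libraries all lay above the 5 sham control libraries for Pax7 and Megf10, and 2.44% of all genes were separated in this direction. Removing the library of each group that correlated least with its group (number 1 of both sham groups, number 5 of MOV control and number 4 of MOV mimic), a step chosen after seeing the data, left 9 of 9 higher, with 5 at an unadjusted p under 0.05 and 0 called, where 2824 of 15244 genes had such a p in either direction and 170 were called.

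**Figure D1:**
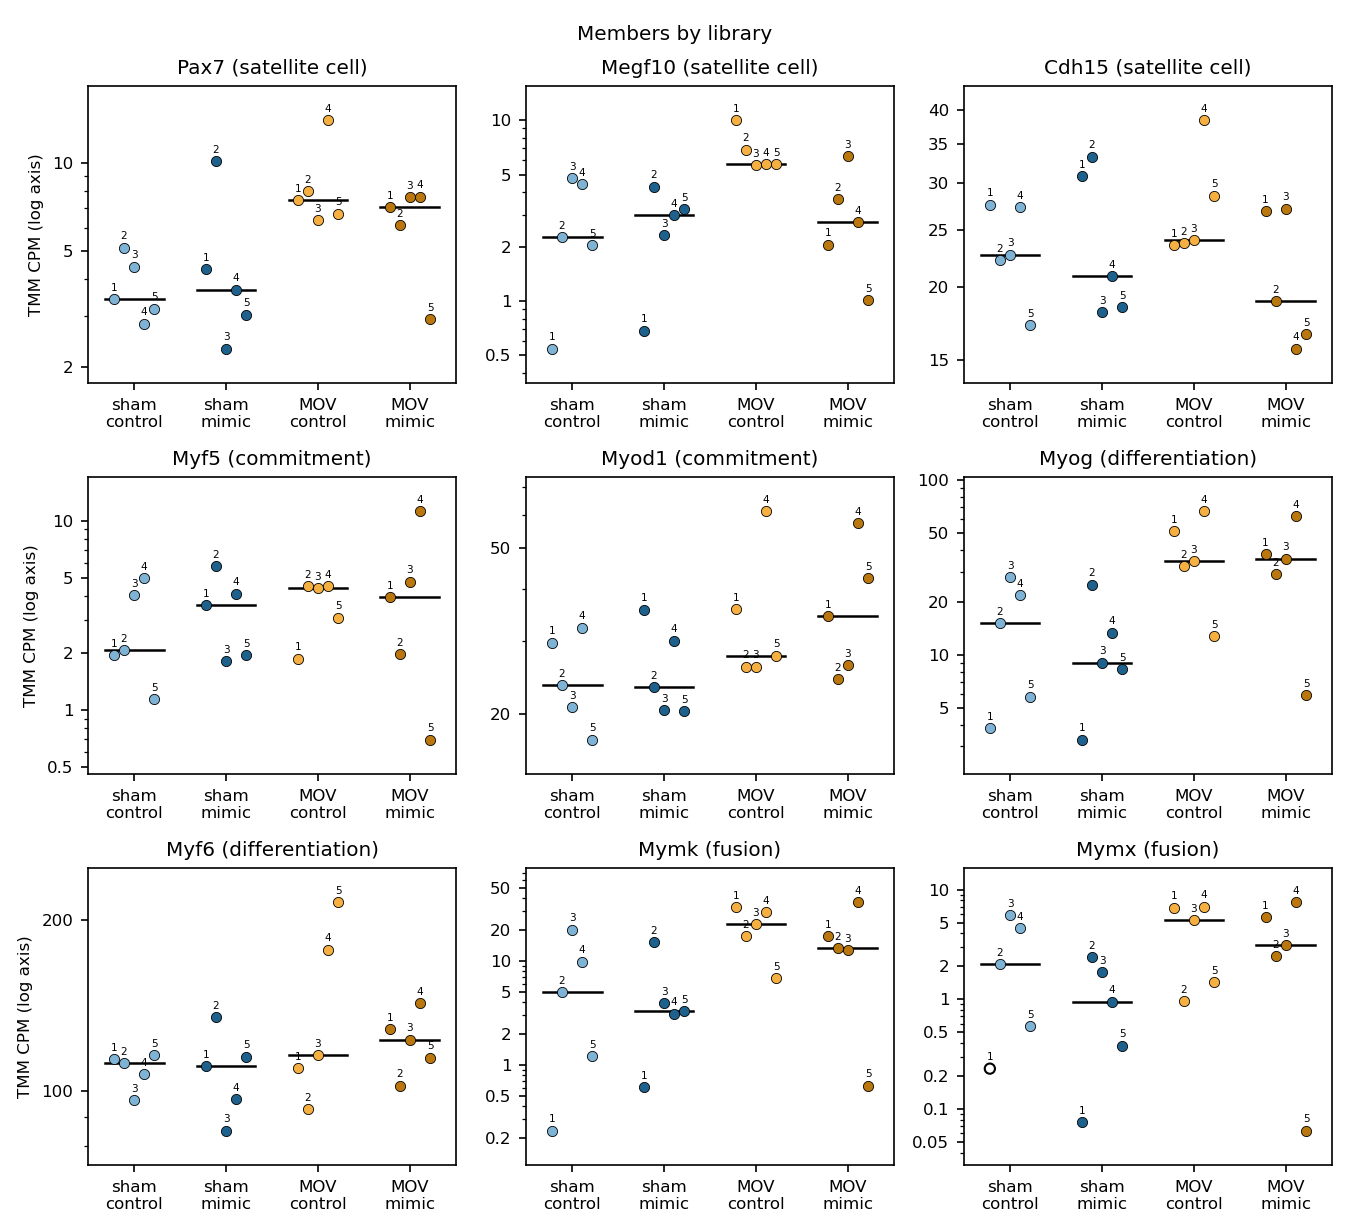
TMM CPM of the 9 regulators in every library, on a log axis, with the library's number in its group beside each point and a line at the median of the 5 libraries. The open circle is a library with 0 counts of Mymx, drawn at the level of 3 counts. For Pax7 the 5 MOV control libraries, 6.38 to 14.0 CPM, lie above the 5 sham control libraries, 2.81 to 5.13 CPM, while for Mymk and Mymx the libraries of a group are spread over the axis.

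Pax7 (ENSMUSG00000028736), the paired-box factor that defines satellite cells, lies on chromosome 4 at 139737059 to 139833530 (GRCm38.p6), where its annotation overlaps Gm46873. Its level in sham control libraries 1 to 5 was 3.42, 5.13, 4.41, 2.81 and 3.17 CPM, and in sham mimic 4.34, 10.1, 2.31, 3.68 and 3.02 CPM. In MOV control it was 7.46, 8.0, 6.38, 14.0 and 6.72 CPM, and in MOV mimic 7.08, 6.13, 7.63, 7.66 and 2.91 CPM. Every MOV control library stood above every sham control library, whereas MOV mimic overlapped sham mimic through sham mimic library 2, which was high, and MOV mimic library 5, which was low. The group means were 3.79 ± 0.956 CPM after sham surgery with the control virus and 4.70 ± 3.13 with the mimic, and after MOV 8.52 ± 3.14 with the control virus and 6.28 ± 1.98 with the mimic (SD, n = 5 each). The log2 fold change of MOV control against sham control was 1.17 (SE 0.27), with an unadjusted p of 0.000838 and an adjusted p of 0.0630 from edgeR. With DESeq2 the adjusted p was 0.00369, with edgeR without the filter on low counts it was 0.0382, and without MOV control library 5 it was 0.0489 in edgeR, and over all alternatives tried it lay between 0.00369 and 0.158. As bulk muscle was sequenced, a larger number of satellite cells and more Pax7 RNA per cell cannot be told apart, here or for the other genes. The paper reports more fibres with central nuclei after MOV than after sham surgery, with either virus. It names subtle damage or regeneration, possibly from injecting virus during MOV, as something it could not exclude. The part of this in the levels of the 9 genes was not tested.

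Megf10 (ENSMUSG00000024593), an EGF-repeat receptor on satellite cells, lies on chromosome 18 at 57133090 to 57297467 and overlaps Gm18322. It had 0.544, 2.26, 4.78, 4.43 and 2.03 CPM in sham control libraries 1 to 5 and 0.685, 4.29, 2.31, 2.99 and 3.21 CPM in sham mimic. In MOV control it had 9.99, 6.87, 5.64, 5.71 and 5.72 CPM, and in MOV mimic 2.05, 3.65, 6.30, 2.73 and 1.01 CPM. MOV control was the group that stood apart, above all sham control libraries and above 4 of 5 MOV mimic libraries, while MOV mimic, at 1.01 to 6.30 CPM, overlapped both sham groups. The log2 fold change of MOV control against sham control was 1.27 (SE 0.43, unadjusted p = 0.0120, adjusted p = 0.15 from edgeR). Between MOV mimic and sham mimic it was 0.22 (SE 0.53, adjusted p = 0.886). Library 1 of both sham groups was the lowest for Megf10, with 7 and 9 counts.

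Cdh15 (ENSMUSG00000031962; chromosome 8, 122848374 to 122867397) encodes M-cadherin, an adhesion molecule between satellite cells and fibres. Unlike Pax7 and Megf10 it ran at a similar level in the 4 groups, with means of 23.4 ± 4.28 CPM after sham surgery with the control virus and 24.3 ± 7.20 with the mimic, and after MOV 27.6 ± 6.37 with the control virus and 21.0 ± 5.58 with the mimic (SD, n = 5 each). All 20 libraries lay between 15.7 and 38.4 CPM and the groups overlapped in every comparison. The log2 fold change was 0.25 after MOV with the control virus (95% interval -0.13 to 0.63) and -0.20 with the mimic (95% interval -0.68 to 0.29). With 1 library left out the former lay between 0.088 and 0.31 and the latter between -0.30 and -0.062. Without the least correlated libraries the latter was -0.012.

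Myf5 and Myf6 lie next to each other on chromosome 10, Myf5 (ENSMUSG00000000435) at 107482908 to 107486927 and Myf6 (ENSMUSG00000035923) at 107492848 to 107494723. Myf5, a bHLH factor of committed satellite cells and myoblasts, had 1.14 to 4.97 CPM in sham control and 1.82 to 5.73 in sham mimic, and after MOV 1.87 to 4.52 CPM with the control virus and 0.697 to 11.2 with the mimic. The MOV mimic group held both the lowest and the highest of the 20 libraries, numbers 5 and 4. Its log2 fold change was 0.38 (SE 0.40, adjusted p = 0.660) after MOV with the control virus and 0.39 (SE 0.59, adjusted p = 0.809) with the mimic, both from edgeR. Without MOV mimic library 4 the latter was -0.27.

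Myod1 (ENSMUSG00000009471; chromosome 7, 46376474 to 46379092) is the bHLH factor that commits activated satellite cells to the myoblast fate. Its means were 24.7 ± 6.17 CPM after sham surgery with the control virus and 25.9 ± 6.70 with the mimic, and after MOV 35.4 ± 15.1 with the control virus and 37.0 ± 13.5 with the mimic (SD, n = 5 each). In each MOV group library 4 was the highest, with 61.4 CPM (control virus) and 57.4 CPM (mimic), and the lowest libraries, with 26.0 and 24.3 CPM, lay within the sham range of 17.4 to 35.6 CPM. The log2 fold changes after MOV were 0.52 (SE 0.26, unadjusted p = 0.0611, adjusted p = 0.300) with control and 0.52 (SE 0.24, unadjusted p = 0.0522, adjusted p = 0.376) with mimic, from edgeR. Without library 4 of the MOV group they were 0.22 and 0.32.

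Myog (ENSMUSG00000026459; chromosome 1, 134290004 to 134292548) encodes myogenin, the bHLH factor of differentiating myoblasts, which is low in fibres with intact innervation. It had 3.81, 15.2, 27.8, 22 and 5.77 CPM in sham control libraries 1 to 5 and 3.27, 25.3, 9.04, 13.4 and 8.31 CPM in sham mimic. After MOV it had 51.1, 32.2, 34.5, 66.5 and 12.9 CPM with the control virus and 37.8, 29.0, 35.6, 62.4 and 5.89 CPM with the mimic. Libraries 1 to 4 of both MOV groups exceeded all 10 sham libraries, and library 5 of both fell inside the sham range. The log2 fold change was 1.40 (SE 0.52, unadjusted p = 0.0177, adjusted p = 0.174) with the control virus and 1.52 (SE 0.55, unadjusted p = 0.0161, adjusted p = 0.306) with the mimic, from edgeR. The 2 comparisons hold different libraries but, by the study's methods, legs of the same mice, so they are not independent of each other. The least correlated libraries left out, the first was 1.37 (unadjusted p = 0.00383) and the second 0.95 (unadjusted p = 0.0801), in edgeR.

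Myf6, which encodes MRF4, is the bHLH factor with the highest RNA level in adult fibres. Its means were 109 ± 7.78 CPM after sham surgery with the control virus and 109 ± 19.0 with the mimic, and after MOV 142 ± 51.9 with the control virus and 122 ± 15.2 with the mimic (SD, n = 5 each). Libraries 4 and 5 of MOV control, with 178 and 215 CPM, lay above all others, and the remaining 18 libraries lay between 85.2 and 143 CPM. The log2 fold change was 0.39 (SE 0.21, adjusted p = 0.341) after MOV with the control virus and 0.18 (SE 0.14, adjusted p = 0.605) with the mimic, in edgeR. With 1 library left out they lay between 0.19 and 0.51 and between 0.10 and 0.27.

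Mymk (ENSMUSG00000009214; chromosome 2, 27061636 to 27072161) encodes myomaker, which brings membranes of fusing myoblasts together. In sham control libraries 1 to 5 it had 0.233 (3 counts), 5.01, 19.98, 9.82 and 1.21 CPM, and in sham mimic 0.609 (8 counts), 15.2, 3.93, 3.12 and 3.27 CPM. In MOV control it had 32.9, 17.3, 22.6, 29.3 and 6.86 CPM, and in MOV mimic 17.3, 13.2, 12.7, 36.5 and 0.634 CPM (10 counts). Mymk thus took low values in library 1 of both sham groups and in library 5 of MOV mimic, and the MOV and sham groups overlapped. With the control virus its log2 fold change after MOV was 1.58 (SE 0.74, 95% interval -0.02 to 3.18, adjusted p = 0.282 from edgeR). With the mimic it was 1.62 (SE 0.81, 95% interval -0.13 to 3.36, adjusted p = 0.405 from edgeR), and 0.80 with the least correlated libraries left out. Single libraries moved both values, to 2.41 without sham control library 3 and to 2.52 without sham mimic library 2, the highest of their groups, and to 1.07 for the mimic without MOV mimic library 4.

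Mymx (ENSMUSG00000079471; chromosome 17, 45600961 to 45602196) encodes myomerger, a small membrane protein that completes fusion. Sham control library 1 had 0 counts of Mymx, which allows up to 0.233 CPM taking 3 counts as the limit, and the other sham control libraries had 2.08, 5.85, 4.43 and 0.571 CPM. Sham mimic had 0.0761 (1 count), 2.43, 1.77, 0.953 and 0.378 CPM. After MOV the levels were 6.86, 0.957, 5.27, 6.98 and 1.43 CPM with the control virus and 5.59, 2.48, 3.12, 7.66 and 0.0634 CPM (1 count) with the mimic. The groups overlapped in all comparisons. The intervals of the fold changes were wide, with 0.72 (95% interval -1.05 to 2.50) after MOV with the control virus and 1.73 (95% interval -0.19 to 3.65) with the mimic, on the log2 scale. With 1 library left out the former lay between 0.41 (without sham control library 1) and 1.27 (without sham control library 3).

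From MOV mimic against sham mimic, 8 of the 9 genes had a positive log2 fold change, against 51.8% of 14918 genes, and the median of the 9 was 0.43 (0.02 over all genes). The gene with a negative value was Cdh15. At an unadjusted p under 0.05 there was 1, Myog, where 7.31% of all genes were higher and 6.08% lower at this level. No gene was called by edgeR (0%), and DESeq2 called 0 of the 9 and 1.48% of all genes. Pax7, with a log2 fold change of 0.43 (SE 0.40, 95% interval -0.44 to 1.30), and Megf10 had smaller values than in the comparison of the control-virus muscles. With the least correlated libraries left out, 7 of 9 were higher and 0 had an unadjusted p under 0.05, where 1152 of 15173 genes had such a p in either direction. Without sham mimic library 2 alone the value of Pax7 was 0.91.

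**Figure D2:**
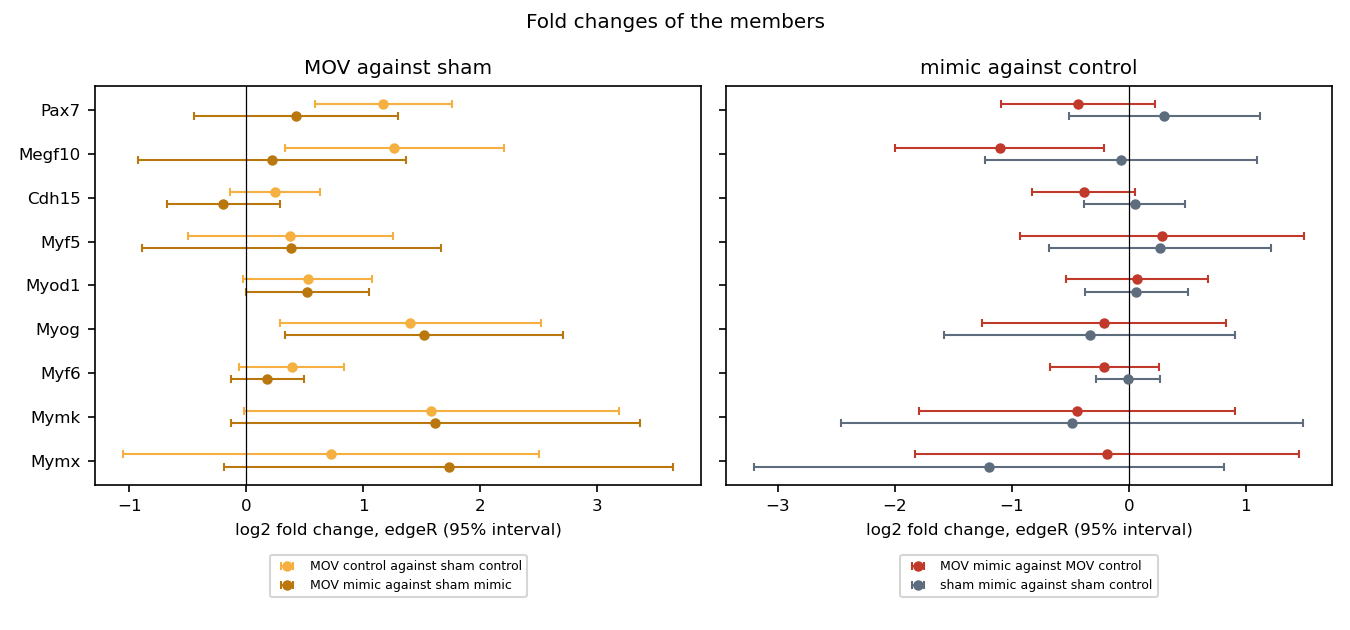
Log2 fold changes of the 9 regulators from edgeR with their 95% intervals, for MOV against sham with each virus (left) and for mimic against control in each surgery (right). On the left the intervals of Pax7, Megf10 and Myog for the control virus and of Myog for the mimic lie above 0. On the right the interval of Megf10 in MOV, -2.0 to -0.21, is the only one that leaves 0 out.

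The question that the study put to the mimic is whether a smaller fall of miR-1 changes the response to MOV. In overloaded muscle, 7 of the 9 regulators had a lower fitted level with the mimic than with the control virus, against 50.7% of 15220 genes, with a median log2 fold change of -0.21 (-0.01 over all genes). The largest difference was that of Megf10, whose mean was 6.78 ± 1.86 CPM with the control virus against 3.15 ± 2.01 with the mimic (SD, n = 5 each). Its log2 fold change was -1.10 (SE 0.41), with an unadjusted p of 0.0191 and an adjusted p of 0.999 from edgeR, and it was the only one of the 9 at an unadjusted p under 0.05, where 1.75% of genes were lower and 2.46% higher. MOV mimic library 3, with 6.30 CPM, lay within the MOV control range. No gene was called by edgeR (0%), and DESeq2 called 0 of the 9 and 0.0197% of all genes.

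Pax7, the gene with seed matches in its 3′ UTR, had a log2 fold change of -0.43 (SE 0.31, 95% interval -1.10 to 0.23) for MOV mimic against MOV control and of 0.30 (SE 0.37, 95% interval -0.51 to 1.12) for sham mimic against sham control. With 1 library left out the former lay between -0.53 and -0.18, the latter value without MOV control library 4. Neither difference passed the test, and the intervals hold changes of over 1 on the log2 scale in 1 direction each. For Myod1 the difference in MOV was 0.07 (95% interval -0.54 to 0.68) and for Myog -0.21 (95% interval -1.25 to 0.83). Mymk had -0.44 (95% interval -1.80 to 0.91) and Mymx -0.19 (95% interval -1.83 to 1.46), so that the fusion genes could have changed by several fold without being detected. With the least correlated libraries left out the values were -1.21 for Mymk (unadjusted p = 0.0620 from edgeR), -0.82 for Mymx and -0.76 for Myog. Without MOV mimic library 4 alone they were -0.98, -0.60 and -0.54. Over all fits with 1 library left out, Mymk lay between -0.98 and -0.14. The remaining values were -0.38 for Cdh15 (95% interval -0.83 to 0.06), 0.29 for Myf5 (95% interval -0.93 to 1.5) and -0.21 for Myf6 (95% interval -0.67 to 0.25). With 1 library left out Myf6 lay between -0.33 and -0.015. Without the least correlated libraries all 9 were lower with the mimic, again with 1 at an unadjusted p under 0.05 and 0 called, where 804 of 15525 genes had such a p in either direction.

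In sham muscle, 4 of the 9 had a higher and 5 a lower fitted level with the mimic, and none had an unadjusted p under 0.05, where 0.563% of 14746 genes were higher and 1.16% lower. No gene at all was called by edgeR or by DESeq2 (0%). The lowest log2 fold change was that of Mymx at -1.20 (SE 0.92, 95% interval -3.21 to 0.81), which was -0.64 without sham control library 3 and -1.65 without sham mimic library 2. Myf6 differed least, with -0.01 (95% interval -0.28 to 0.27), and Myod1 and Cdh15 had 0.06 and 0.05. Myf5 had 0.27 (95% interval -0.68 to 1.21), Megf10 -0.07 (-1.23 to 1.10), Myog -0.33 (-1.58 to 0.91) and Mymk -0.48 (-2.46 to 1.49).

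Whether MOV acted differently with the 2 viruses was asked of the interaction term between surgery and virus, fitted over the 20 libraries. None of the 9 was called by edgeR, nor was any of the 16166 genes tested (0%), and DESeq2 called 0 of the 9 and 0.00619% of all genes. No member had an unadjusted p under 0.05, against 1.30% of genes that were higher and 1.34% that were lower at this level. Megf10 had a log2 value of -1.04 (SE 0.70), Pax7 of -0.74 (SE 0.50) and Cdh15 of -0.45 (SE 0.30), with unadjusted p of 0.152, 0.152 and 0.149 from edgeR. With 1 library left out Pax7 lay between -0.92 and -0.25 (without sham mimic library 2), Cdh15 between -0.56 and -0.29 (without MOV control library 4) and Megf10 between -1.46 and -0.78 (without sham control library 1). Mymx had the most positive value, 1.01 (SE 1.28), and the other 5 genes lay between -0.21 and 0.12, of which Myf5, Myog and Mymk had -0.57, -0.41 and -0.69 with the least correlated libraries left out.

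The left and right plantaris of a mouse had received different viruses, and libraries are numbered 1 to 5 in each group, but the labels do not say that a number stands for a mouse. Differences between the mimic and the control library of equal number, in log2 CPM, are therefore a description. In MOV, Megf10 had -2.22, -0.89, 0.16, -1.04 and -2.37 for numbers 1 to 5, lower in 4 of 5 with a mean of -1.27 ± 1.04 (SD). Mymk had -0.92, -0.39, -0.82, 0.32 and -3.22, and Pax7 -0.08, -0.38, 0.25, -0.86 and -1.17, each also lower in 4 of 5. Myog was lower in 4 of 5 too, by small amounts in 3 of them (-0.43, -0.15, 0.04, -0.09 and -1.11). Myod1 stayed within 0.10 of 0 for numbers 1 to 4 and was 0.62 higher with the mimic for number 5.

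In sham muscle these differences went both ways for every gene. Mymk ranged from -2.31 to 1.58 and Mymx from -2.09 to 0.73, with 3 of 5 and 2 of 5 higher with the mimic. Mymx number 1 compares 1 count with 0, so its difference is set by the prior count of 2. The narrowest ranges were those of Myod1, -0.10 to 0.26, and Myf6, -0.18 to 0.27. Number 5 of MOV had the largest negative difference for 7 of the 9 genes, all but Cdh15 and Myod1.

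**Figure D3:**
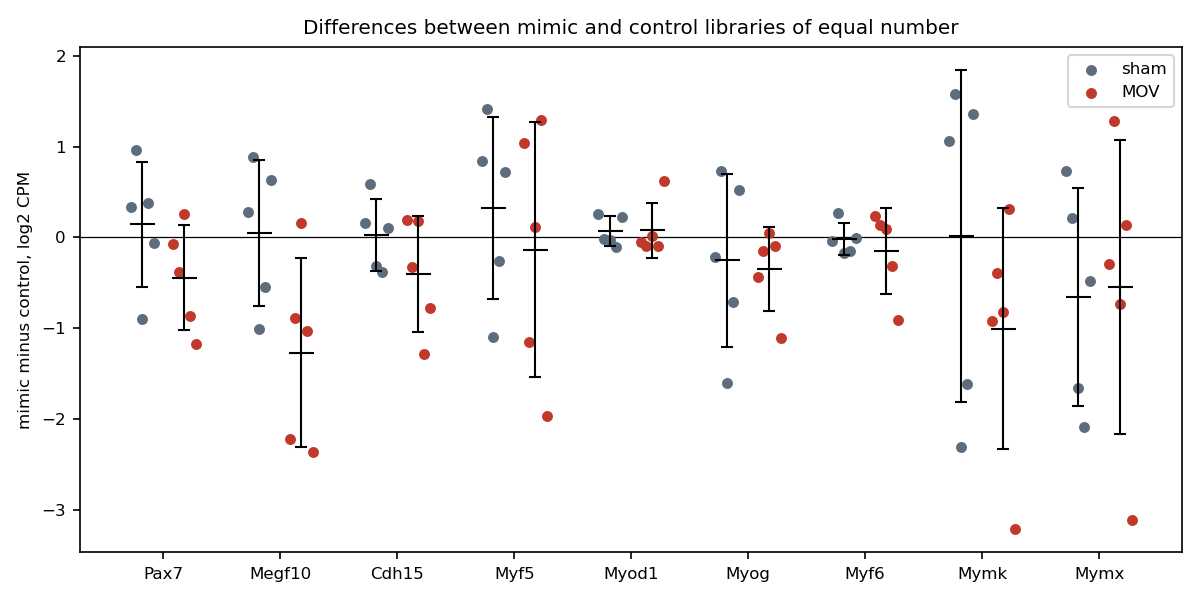
Differences in log2 CPM between the mimic and the control library of equal number for the 9 regulators, in sham (blue-grey) and MOV (red). Each point is 1 number, and bars give the mean and SD over 5. Megf10, Pax7, Myog and Mymk have 4 of 5 MOV points below 0, and the points of Mymk and Mymx span the widest range.

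The spread between libraries of one group differed greatly among the 9 genes. The SD of log2 CPM within a group had a median over all 16166 genes of 0.344 in sham control and 0.335 in sham mimic, and after MOV of 0.386 with the control virus and 0.454 with the mimic. Mymk had an SD of 2.34 in sham control and Mymx of 2.33, each larger than in 99.9% of genes. In sham mimic they had 1.56 and 1.52, and in MOV mimic 2.15 and 2.16, larger than in 98.2% to 98.5% of genes. In MOV control the SD of Mymk was 0.90 and that of Mymx 1.30, larger than in 84.2% and 93.9% of genes. Myog had SDs of 1.23, 1.06, 0.90 and 1.28 in sham control, sham mimic and the control and mimic groups of MOV. Myf6 had SDs of 0.11, 0.25, 0.51 and 0.18 in this order, larger than in 4.5%, 35.9%, 61.9% and 9.35% of genes.

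Myog, Mymk and Mymx varied together. Over the 20 libraries, each taken relative to its group mean in log2 CPM, Pearson's r was 0.965 between Myog and Mymk (Spearman's rho 0.949), 0.950 between Mymk and Mymx (0.943) and 0.921 between Myog and Mymx (0.908). Without the 2 libraries farthest from the median of the first gene named in each pair, r was 0.953, 0.897 and 0.876. Megf10 had r of 0.761 to 0.821 with these 3, with lower rho, 0.510 to 0.615. Without the 2 libraries farthest from the median of Megf10, r was 0.614 to 0.722. Myod1, although it acts upstream of Myog in myoblasts, had r of 0.089 with Myog and -0.063 with Mymk, and Myf6 had -0.053 with both. The 36 pairs of the 9 genes had r from -0.362 to 0.965 with a median of 0.346. Values of 1 library share its dissection, RNA and depth, so these correlations are descriptions.

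Genes outside the 9 were ranked by the same correlation over the 20 libraries. Among them Myl4, the atrial and embryonic myosin light chain, was the most like Mymk (r = 0.980), Myog (0.951) and Mymx (0.934). Tnnt2, the cardiac and embryonic troponin T (r = 0.977), and Ppfia4 (0.975), which is the nearest coding gene to Myog, came next after Myl4 for Mymk. Myh8, the perinatal myosin heavy chain, had 0.947 with Myog, after Isyna1 with 0.949. For Mymx, Plekhh2 (0.933) and Ppfia4 (0.932) followed Myl4.

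The other genes had different neighbours in this ranking. Megf10 was closest to Plagl1 (0.923), Kif11, a kinesin of the mitotic spindle (0.917), and Cyb5r3 (0.915). Pax7 had Arhgap24 (0.878) and Arpp21 (0.868) among its closest genes. Cdh15 had Fto (0.910), Pomgnt1 (0.910) and Hs6st1 (0.850), Myf5 had Tbx4 (0.909), Aif1l (0.854) and Rgp1 (0.854), Myod1 had Sars2 (0.809), Hrct1 (0.807) and Nutf2 (0.787), and Myf6 had Atp6v1d (0.883), Sgcb (0.881) and Serpinb6a (0.854).

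The same few libraries held the extremes. Sham mimic library 2 was the highest of its group for 8 of the 9 genes, all but Myod1, and MOV mimic library 4 for 7, all but Megf10 and Cdh15. The latter library had the lowest total of the 20 (12036360 counts), the fewest genes with counts (15561, with 18768 in the next) and the lowest mean correlation with its group (0.881). MOV mimic library 5 was the lowest of its group for 6, and library 1 of sham control and of sham mimic was each the lowest for Megf10, Myog, Mymk and Mymx. In all 4 groups 1 library was the lowest for Myog and Mymk at once. Markers of other cells moved with some of these. The summed level of 7 fibro-adipogenic progenitor genes, all detected, was 1009 and 1433 CPM in library 1 of sham control and sham mimic and between 3922 and 8438 CPM in the other sham libraries. The sum of 12 leukocyte genes was 235 and 236 CPM in those 2 libraries and between 399 and 974 CPM in the others. In MOV control it was 236 and 240 CPM in libraries 4 and 5 and 639 to 834 CPM in the rest, and in MOV mimic 458 to 968 CPM. The fibro-adipogenic sum was 3691 and 2407 CPM in MOV control libraries 4 and 5 and 8071 to 9117 CPM in the others, and 4216 to 8043 CPM in MOV mimic. This sum mainly follows the collagens Col3a1 and Col1a1. In sham control their means were 2973 and 1557 CPM, with 639 for Dcn and 38.1 for Pdgfra. The part of these other cells in the values of the 9 genes was not tested.

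**Figure D4:**
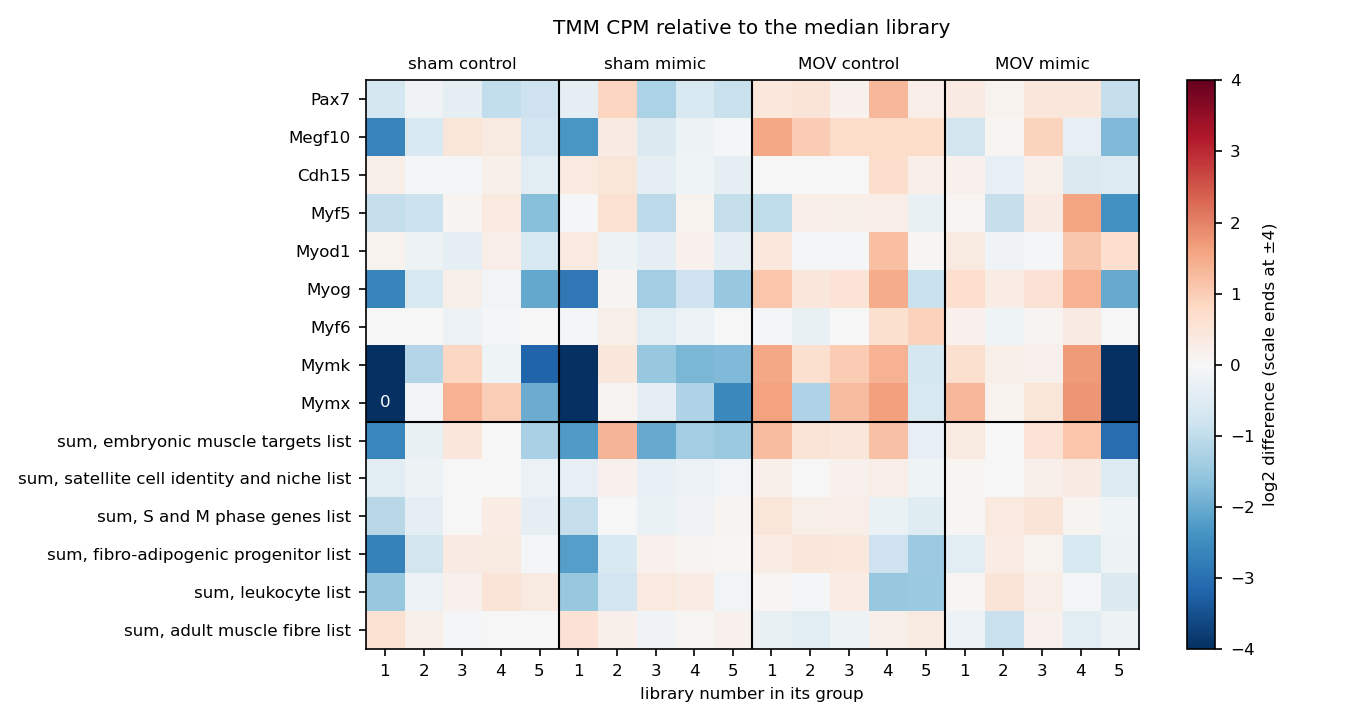
Level of each of the 9 regulators (above the line) and summed level of 6 gene lists (below it) in the 20 libraries, as the log2 difference from the median library, blue lower and red higher. The cell marked 0 had no counts of Mymx and is drawn at the end of the scale. Library 1 of both sham groups and library 5 of MOV mimic are dark blue for Mymk and Mymx, and the row of the embryonic muscle targets has its low values in the same libraries.

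Between genes, levels were compared per kilobase of exon, with exon lengths from GENCODE vM1. In sham control the order was Myf6 (87.3 CPM per kilobase), Myod1 (13.3), Myog (10.1), Cdh15 (7.20), Mymk (4.8), Mymx (2.74), Myf5 (1.36), Pax7 (0.647) and Megf10 (0.364). The step from Myf6 to Myod1 exceeded the SDs of both, 6.23 and 3.33, whereas Myod1, Myog, Cdh15, Mymk and Mymx each lay within the SD of a neighbour. In MOV control Myog (26.7 ± 13.7) stood above Myod1 (19.1 ± 8.14) and Mymk (14.4 ± 6.81) above Cdh15 (8.50 ± 1.96) on this scale, changes of order that are within the SDs over 5 libraries. Pax7 (1.45) and Megf10 (0.879) were again the lowest. In MOV mimic the order was that of MOV control, and in sham mimic it differed from sham control only in that Myf5 (1.65) stood above Mymx (1.19).

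Other genes of the pathway were taken in 6 lists, none of which had a gene called by edgeR in any comparison. Their counts are to be read against the shares of all genes given above, which for MOV control against sham control were 54.2% higher, 9.06% higher and 9.15% lower at an unadjusted p under 0.05, and 6.10% called by DESeq2. Of 8 embryonic muscle targets, structural and receptor genes that Myog and its partners turn on, 8 were higher in MOV control than in sham control, with a median log2 fold change of 1.24, and 3 had an unadjusted p under 0.05. Chrna1, a subunit of the acetylcholine receptor, had 33.2 ± 12.5 CPM in sham control and 79.8 ± 25.6 in MOV control (SD, n = 5 each) and an adjusted p of 0.00194 with DESeq2. Against this, Myh3, the embryonic myosin heavy chain, went from 138 ± 153 to 457 ± 255 CPM (SD, n = 5 each) with libraries that overlapped. In MOV mimic against sham mimic 8 of 8 were also higher (median 0.95), and in MOV mimic against MOV control 8 of 8 had negative values (median -0.36, 0 at an unadjusted p under 0.05). The summed level of the list was lowest, 133 CPM, in MOV mimic library 5 and highest, 2812 CPM, in sham mimic library 2.

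Of 19 genes of satellite cell identity and niche, 18 were tested and 13 were higher in MOV control than in sham control (median 0.24), 3 of them at an unadjusted p under 0.05 and 0 lower. These 3 were also called by DESeq2, and are named here after their values were seen, as are all genes of the lists that DESeq2 called. Itga7, the laminin receptor of satellite cells and fibres, had 117 ± 22.6 CPM in sham control and 190 ± 39.8 in MOV control, Fgfr4 5.70 ± 3.16 and 13.7 ± 5.65, and the Notch target Heyl 8.78 ± 3.06 and 16.6 ± 5.46 (SD, n = 5 each). Their adjusted p was 0.0724, 0.119 and 0.125 with edgeR and 0.0108, 0.0285 and 0.0451 with DESeq2. Of the same list 14 were higher in MOV mimic than in sham mimic, 1 at an unadjusted p under 0.05, and 11 in MOV mimic than in MOV control, with 0. Pax3, the relative of Pax7, had at most 0.380 CPM in any library and was not tested.

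Of 26 genes for adhesion and fusion of myoblasts, 23 were tested and 18 were higher in MOV control (median 0.20), 5 at an unadjusted p under 0.05, and 1 was lower at such a p. Ncam1, the neural cell adhesion molecule, had 14.6 ± 7.54 CPM in sham control and 39.6 ± 15.8 in MOV control, Dysf, which encodes the membrane repair protein dysferlin, 67.5 ± 6.65 and 104 ± 23.6, and Jam2, a junctional adhesion molecule, 37.5 ± 8.86 and 21.0 ± 4.72 (SD, n = 5 each). All 3 were called by DESeq2, and Jam2, the only lower one, was also called by DESeq2 in MOV mimic against sham mimic (adjusted p = 0.0355), together with Nfatc2, a factor of myoblast recruitment. In MOV mimic against MOV control 10 were higher and 13 lower, with 2 and 1 at an unadjusted p under 0.05.

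Of 15 genes that act beside the bHLH factors, among them Mef2 and Eya genes, Smarcd3 and 2 cell cycle inhibitors, 10 were higher and 5 lower in MOV control than in sham control (median 0.25), with 5 and 2 at an unadjusted p under 0.05. Between MOV mimic and sham mimic 14 were tested, with 7 higher and 7 lower (median -0.005), 0 and 3 of them at such a p. Cdkn1a, the cell cycle inhibitor p21 that accompanies differentiation, had the largest log2 fold change of the genes of these lists that DESeq2 called, with 36.6 ± 18.5 CPM in sham control (SD, n = 5) and a mean of 111 CPM in MOV control, where the 5 libraries lay between 52.7 and 189 CPM (log2 fold change 1.61 and adjusted p 0.0630 with edgeR, adjusted p 0.000787 with DESeq2). In MOV mimic it had 64.2 ± 30.8 CPM. Of 12 E proteins, Id proteins and other bHLH partners or inhibitors, 8 were higher and 4 lower (median 0.16), 1 and 2 at an unadjusted p under 0.05, and DESeq2 called none. Of 10 S and M phase genes, 8 were higher in MOV control than in sham control (median 0.56) and 9 for MOV mimic against sham mimic (median 0.56), with 1 in each at an unadjusted p under 0.05.

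The muscle label was checked on marker lists. The sum of 7 adult fibre genes, all detected, was 59413 to 168284 CPM in the 20 libraries, and the satellite cell markers Pax7, Cdh15, Megf10, Vcam1, Calcr and Itga7 were detected in all 4 groups, with Calcr at 0 in 1 or more MOV mimic libraries. Between MOV control and sham control, 4 of 5 pericyte and smooth muscle genes (median -0.81), 5 of 5 endothelial genes (median -0.38) and 3 of 3 adipocyte genes (median -1.65) had negative log2 fold changes, and 3, 2 and 1 had an unadjusted p under 0.05. Of the leukocyte genes 10 were tested. Their median was -0.28 between MOV control and sham control and 0.50 between MOV mimic and MOV control, where 10 of 10 were higher, 3 at an unadjusted p under 0.05. Between MOV mimic and sham mimic 9 of 10 leukocyte genes were higher (median 0.56, 4 at such a p), 4 of 5 pericyte and smooth muscle genes lower (median -0.79, 3 at such a p), 5 of 5 endothelial genes lower (median -0.36, 4 at such a p) and 3 of 3 adipocyte genes lower (median -1.40, 1 at such a p). Of 5 Schwann cell genes, 5 had negative values for MOV mimic against MOV control (median -0.55), none at an unadjusted p under 0.05. In the same comparison 5 of 5 slow fibre genes were higher (median 0.50) and 6 of 7 adult fibre genes lower (median -0.30), none at such a p. The endothelial, pericyte and smooth muscle, and fibro-adipogenic lists went both ways there. The fibro-adipogenic list had medians of -0.36 and -0.14 for MOV against sham with control virus and mimic. The fibre lists went both ways with the control virus. Of 5 slow fibre genes 3 were higher, 1 at an unadjusted p under 0.05, and 2 lower, both at such a p (median 0.92), and of 7 adult fibre genes 4 were higher and 3 lower, with 1 in each direction (median 0.07). Those lower at this level were Myl2, Myl3 and Myh4, the fast myosin heavy chain IIB, which had 35399 ± 14093 CPM in sham control and 11730 ± 2804 in MOV control (SD, n = 5 each), and DESeq2 called Myl2 and Myh4, as well as 3 of the pericyte and smooth muscle genes and 1 of the endothelial genes, all lower. With the mimic 4 of 5 slow fibre genes were higher (median 1.59) and 7 of 7 adult fibre genes lower (median -0.46). The part of these cells in the levels of the 9 regulators was not tested.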

How the data were processed

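Plantaris RNA had been sequenced with NEBNext Ultra II libraries. Per the study's methods and the submitters' processing notes, the authors used FastQC 0.11.9, cutadapt 4.4, Trim Galore 0.6.10, HISAT2 2.0.5 (GRCm38), featureCounts 1.5.0-p3 and DESeq2 1.34.0. The annotation release and the strand setting are not given in the sources used here, so reads of overlapping or antisense genes may not be separable. The deposited values are raw counts per gene, one table for each virus, joined on 54532 gene IDs, of which 32640 were matched to a symbol.

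Counts were normalized by TMM and tested with edgeR 4.0.16 (R 4.3.3; filterByExpr, glmQLFit and glmQLFTest) in the 10 libraries of a comparison, or in all 20 for the interaction. Log2 CPM used a prior count of 2. The scripts were tested on simulated data with known changes. Alternatives were DESeq2 1.42.0, its size factors, no filter, a minimum of 10 counts in total, all 20 libraries, a replicate block, leaving out each library, a prior count of 0.5 and no TMM. One alternative, leaving out the library of each group with the lowest mean correlation with its group, was chosen after seeing the data. The limit for a count of 0 was 3 counts, and it covers counting error only. No pair of the 40 pairs of libraries of one group agreed within sampling noise (chi-square per gene 12.7 to 154). The labels do not say which libraries came from which of the 10 mice, so p-values measure the spread between these libraries.

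The 9 genes and the gene lists were chosen with earlier results of these data known. The rule for named genes took all 9, up to 3 genes called by edgeR in each direction from each list (there were none, and the list genes named were chosen after their values were seen, most of them by their DESeq2 calls), and the 3 genes outside the 9 with the highest correlation with each of the 9. One of these genes is not reported here. Positions are from RefSeq GRCm38.p6, and exon lengths and seed matches from GENCODE vM1 (NCBIM37). The counts were not converted between builds.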

Additional observations from a re-analysis of the deposited data

Results flagged for a closer look

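In 5 of 36 groups of 5 libraries (9 genes in 4 groups), 1 library lay farther from the others than Dixon's critical value of 0.710 allows. The values compared were CPM, and log2 CPM was not tested in this way. For normal values chance flags about 1 in 20 groups. That rate need not hold here, because CPM are skewed to high values and the 36 groups share libraries. Pax7 had 10.1 CPM in sham mimic library 2, where the next library had 4.34 CPM, and 14.0 CPM in MOV control library 4, where the next had 8.0 CPM. Megf10 had 9.99 CPM in MOV control library 1, with 6.87 CPM next. Myod1 had 61.4 CPM in MOV control library 4, with 35.8 CPM next. Mymk had 15.2 CPM in sham mimic library 2, with 3.93 CPM next. All 5 values were the highest of their group, which the CPM scale favours, and sham mimic library 2 and MOV control library 4 held 2 each.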

How the results depend on the processing

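The number of genes called in MOV control against sham control depended strongly on the method. It was 1 with edgeR, 913 with DESeq2, 388 without the filter, 163 with at least 10 counts in total, 36 with all 20 libraries in the fit and 170 with the least correlated libraries left out, and between 0 and 426 when 1 library was left out (426 without sham control 3, 318 without MOV control 5). Of the 9 regulators, 0 were called in the main analysis, 1 with DESeq2, 1 without the filter, and 0 to 1 with 1 library left out. That gene was Pax7, with log2 fold changes of 1.16 (DESeq2), 1.14 (no filter) and 0.90 to 1.30 with 1 library left out. In MOV mimic against sham mimic the count was 0 in edgeR, 221 with DESeq2, 1 without the filter, 3 with all 20 libraries and 0 to 101 with 1 left out (101 without MOV mimic 5). In MOV mimic against MOV control it was 0, 3 with DESeq2 and 1 with all 20 libraries, and for the interaction 0, and 1 with DESeq2. The cause of these shifts was not tested.

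A rule for taking libraries of equal number as pairs was not met, but this does not show that they are not pairs. The correlation of their deviations was positive in all 10 pairs, at 0.012 to 0.663, and over 0.1 in 7 of 10. Of 20 libraries, 13 correlated best with their own number, each out of 5 candidates. If the numbers stand for mice, the main tests of mimic against control, which hold no block, leave the pairing out. A replicate block in DESeq2 gave 722 calls in MOV control against sham control, 116 in MOV mimic against sham mimic, 127 in MOV mimic against MOV control and 5 for the interaction. It called 2 of the 9, Pax7 (1.12) and Myog (1.51), in the first of these. Sham and MOV libraries of equal number come from different mice, so a block on the number has no basis in the design for MOV against sham. A replicate block in edgeR called none of the 9. In MOV mimic against MOV control it gave -1.28 for Megf10 (unadjusted p = 0.0110, adjusted p = 0.581) and -0.82 for Mymk (unadjusted p = 0.0432, adjusted p = 0.686), and for the interaction -1.31 for Megf10 (unadjusted p = 0.0386, adjusted p = 0.960). In MOV against sham with the control virus, 5 of the 9 had an unadjusted p under 0.05 under the edgeR block. There 2217 of 14974 genes had such a p in either direction. With the mimic it was 2 of the 9, against 1393 of 14918 genes. Signs reversed under the block, in edgeR and in DESeq2, for Myf5 in MOV mimic against MOV control (-0.084 and -0.094), Megf10 in sham (0.014 and 0.032), and, for the interaction, Myf5 (-0.40 and -0.42), Myod1 (0.0063 and 0.023), Myog (-0.049 and -0.060) and Mymk (-0.60 and -1.01), and in DESeq2 alone for Mymk in sham (0.099).

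Other reversals were of values near 0 or with wide intervals. With the least correlated libraries left out they were Myf5 in MOV mimic against sham mimic (-0.26) and against MOV control (-0.42), Myod1 against MOV control (-0.21), Myf6 in sham (0.013) and, for the interaction, Myf5 (-0.57), Myog (-0.41) and Mymk (-0.69). With DESeq2 and with its size factors they were Myf6 in sham (0.0015 and 0.0016) and Myod1 for the interaction (0.010 and 0.010). With 1 library left out, values in MOV mimic against sham mimic ranged from -0.19 to 0.44 for Megf10 and -0.27 to 0.65 for Myf5. In MOV mimic against MOV control they ranged from -0.37 to 0.56 for Myf5, -0.14 to 0.36 for Myod1, -0.54 to 0.058 for Myog and -0.60 to 0.13 for Mymx. In sham they ranged from -0.19 to 0.49 for Pax7, -0.32 to 0.23 for Megf10, -0.085 to 0.15 for Cdh15, -0.067 to 0.19 for Myod1, -0.80 to 0.034 for Myog, -0.094 to 0.075 for Myf6 and -1.39 to 0.37 for Mymk. For the interaction they ranged from -0.64 to 0.29 for Myf5, -0.20 to 0.30 for Myod1, -0.23 to 0.59 for Myog, -0.34 to 0.0016 for Myf6 and -0.79 to 0.95 for Mymk. Depth limits the low values of Mymx and Mymk, which had between 0 and 10 counts in some libraries.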
